A study of Danio rerio with 9 samples.

Results

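The genes described here encode the subunits of ligand-gated ion channels that answer to glutamate, GABA, glycine and acetylcholine. They were picked by symbol: every row whose name begins with gria, grin1 to grin3, grik, grid (for delta receptors), gabr, glra, glrb or chrn. Of 21109 genes or transcripts, 70 were members. Of these, 68 encode subunits: 8 AMPA, 8 NMDA, 5 kainate and 3 delta subunits of the glutamate family, 17 GABA-A, 7 glycine, 5 muscle nicotinic and 15 other nicotinic subunits. The other 2 encode proteins that bind a delta receptor, and they are counted apart and not described further. A further 13 rows of the same families fell outside the rule, because their names are in capitals (7 rows) or are given by identifier alone (6 rows), and their values come last.

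RNA of zebrafish embryos was sequenced after polyA selection in 9 libraries, which the submitters label as trunk tissue. There were 3 libraries in each of 3 groups, labelled control MO, sf3b1 MO and, with the arsenic compound added, sf3b1 MO + As2S2. All 3 groups received a morpholino, an antisense oligonucleotide: a control one, or one against sf3b1, a core splicing factor. The third group also received As2S2, an arsenic sulfide, which the study tests for an effect on red blood cell maturation. Strain, age and dose are not in the labels used here. The labels do not tie replicates to different clutches, so the p-values speak of the spread among these libraries, which may be technical.

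Fast excitation in the vertebrate nervous system runs mainly through AMPA, kainate and NMDA receptors, which are tetramers opened by glutamate. Fast inhibition runs through GABA-A and glycine receptors, which are chloride channels built of 5 subunits. Nicotinic receptors belong to the same pentameric superfamily. In the skeletal muscle of mammals they are built from the counterparts of chrna1, chrnb1, chrnd and either chrng or chrne. There they start contraction when motor neurons release acetylcholine.

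Total counts ran from 21942696 to 28702980 in the 6 libraries of control MO and sf3b1 MO. The As2S2 libraries have no counts in the deposited table, and their depth is unknown. Counts and FPKM disagreed on the gene that the morpholino targets: sf3b1 stood at 877 ± 20.3 CPM (counts scaled to library size) in the libraries labelled sf3b1 MO and 541 ± 5.92 CPM in control MO, but at 108 ± 1.75 and 171 ± 4.68 FPKM (fragments scaled to gene length and library size), with 169 ± 2.27 FPKM after As2S2 (SD, n = 3). smad7, which is not a member, also went opposite ways: its log2 ratio of sf3b1 MO to control MO was 0.44 from counts and -0.45 from FPKM. For the members the log2 ratio of sf3b1 MO to control MO from counts and from FPKM differed by at most 0.19, with a median of 0.03. In all 70 of 70 members the authors' deposited mean equalled the mean of log2(FPKM + 1) over the 6 libraries within 0.001. Markers of tissues outside the trunk were present: 9 photoreceptor genes summed to between 2703 and 2841 FPKM in control MO, and none of the 9 was at 0 in any library.

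In control MO the most abundant subunits per length were those of glutamate receptors. The 2 copies of the NMDA subunit that every NMDA receptor needs led the list, grin1a at 75.7, 76.7 and 77.2 FPKM and grin1b at 69.9, 71.4 and 77.5 FPKM. Their ranges overlapped, and grin1b also overlapped the AMPA subunit gria3a, at 67.3, 69.8 and 71.0 FPKM. The AMPA subunit gria4a came next at 33.4, 35.1 and 34.4 FPKM, apart from all 3. Then followed gria2b at 28.7 FPKM on average, the glycine receptor beta subunit glrbb at 18.3, the muscle subunit chrna1 at 17.0 and the adult-type glycine subunit glra1 at 14.0 FPKM. In all, 14 subunit genes reached 10 FPKM, 43 lay from 1 to 10 FPKM and 11 under 1 FPKM. The deposited table does not show how reads were split between near-identical copies, so the levels of duplicates such as grin1a and grin1b are uncertain to that extent.

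Summed over each class, AMPA subunits stood at 166, 168 and 174 FPKM in control MO, and at 298, 277 and 295 FPKM in sf3b1 MO. With As2S2 they stood at 92.7, 87.5 and 88.0 FPKM. The 3 groups did not overlap, with As2S2 lowest and sf3b1 MO highest. NMDA, kainate, GABA-A, glycine and other nicotinic sums were ordered in the same way without overlap, and delta sums overlapped between control MO and sf3b1 MO. The sums are not set against the median of all genes. With As2S2 that median was 0.25 lower than in control MO on the scale of log2(FPKM + 1). The kainate sum with As2S2 was 0.917 times that of control MO. Relative to the median gene, kainate genes had a median log2 fold change of 0.28 there. Muscle nicotinic subunits were ordered differently, from 30.6 ± 0.734 FPKM in control MO to 16.9 ± 0.607 in sf3b1 MO and 7.88 ± 0.989 with As2S2 (SD, n = 3). A sum follows its most abundant genes, and these sums carry no test.

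**Figure D1:**
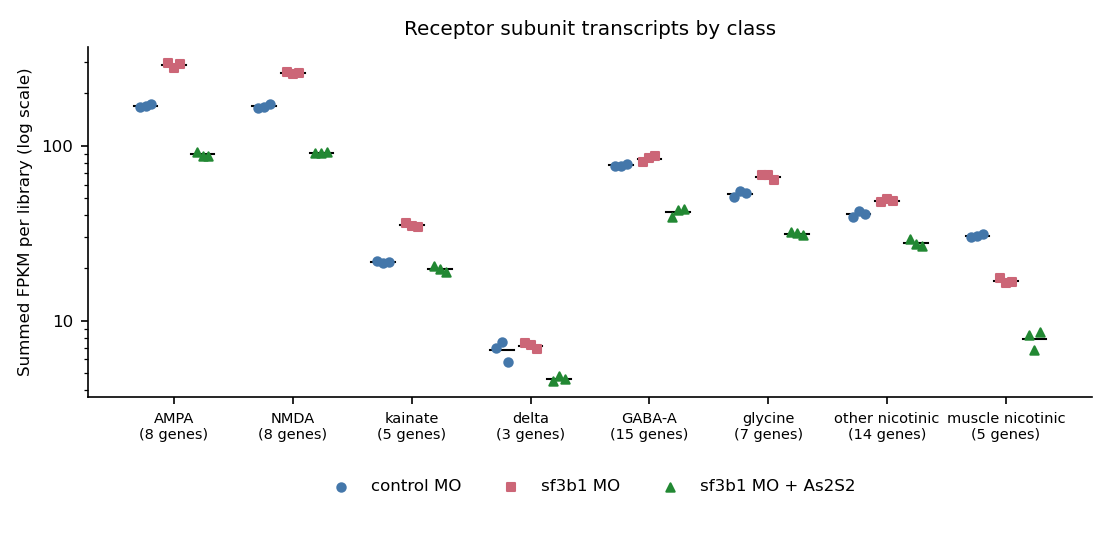
Summed FPKM of each class of subunit genes, on a log axis, for each library of the 3 groups; points are libraries and short bars are group means. AMPA sums lie at 166 to 174 in control MO, 277 to 298 in sf3b1 MO and 87.5 to 92.7 with As2S2, whereas the muscle nicotinic sum falls in steps from 30.6 to 16.9 to 7.88 on average; 3 genes with no As2S2 value are left out.

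The first comparison, sf3b1 MO against control MO, asks what the splicing factor morpholino did to these genes, and it was made on counts. Many excitatory and glycine receptor subunits rose, and 3 of the 5 muscle subunits fell. Of the 68 subunit genes, 31 were higher (45.6%) and 7 lower (10.3%) at an edgeR adjusted p under 0.05, where 25.2% of all 20723 genes tested were higher and 25.9% lower. Their median log2 fold change was 0.26, against -0.02 over all genes. Fewer cells of a type and less RNA per cell cannot be told apart in such libraries.

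Among AMPA subunits, which carry most fast excitation, 6 of 8 rose and none fell, with a median log2 fold change of 0.71. For gria3a the control MO libraries held 107, 111 and 116 CPM and the sf3b1 MO libraries 188, 175 and 189.8 CPM. All 3 sf3b1 MO libraries were above all control libraries, and the log2 fold change was 0.72 (SE 0.04, edgeR adjusted p = 2e-08). For gria4a the values were 67.3, 70.6 and 68.5 CPM against 126, 122 and 126 CPM, again without overlap (log2 fold change 0.86, SE 0.04, edgeR adjusted p = 3.1e-09). The gria2 pair, whose mammalian counterpart keeps AMPA receptors from passing calcium once its RNA is edited, rose by 0.82 (gria2a) and 0.59 (gria2b) on the log2 scale. Only the gria1 pair passed the test in neither direction, with log2 fold changes of -0.17 (gria1a) and 0.13 (gria1b).

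Among NMDA subunits 5 of 8 rose and none fell, with a median of 0.41. Counts of grin1a were 346, 348 and 348 CPM in control MO and 551, 549 and 532 CPM in sf3b1 MO. The groups stood far apart and the spread within each was small (log2 fold change 0.65, SE 0.03, edgeR adjusted p = 5.4e-10). Counts of grin1b were 414, 408 and 437 CPM against 741, 721 and 741 CPM, with a log2 fold change of 0.81 (SE 0.03, edgeR adjusted p = 1.7e-10). The glutamate-binding grin2 subunits, which set how fast the channel closes, were split. grin2bb, grin2da and grin2aa rose by 0.60, 0.44 and 0.38 on the log2 scale, while grin2ca (0.15), grin2ab (-0.18) and grin2cb (-0.46) passed in neither direction.

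Among kainate subunits 4 of 5 rose, with a median of 0.73. grik1a stood at 8.87, 8.42 and 9.38 CPM in control MO and at 23.3, 20.6 and 21.3 CPM in sf3b1 MO. Every sf3b1 MO library was more than 2-fold above every control library (log2 fold change 1.29, SE 0.10, edgeR adjusted p = 2.7e-07). grik2, the most abundant of the class, stood at 80.2, 77.8 and 81.7 CPM against 146, 148 and 135 CPM (log2 fold change 0.84, SE 0.05, edgeR adjusted p = 5.7e-09). The high-affinity subunits grik4 and grik5, which need grik1 to grik3 to form a channel, rose by 0.38 and 0.73. The rise of grik4 was not called on FPKM (0.27, limma adjusted p = 0.055). grik3, at 5.63 ± 0.945 against 4.32 ± 0.386 CPM (SD, n = 3), did not pass although the libraries did not overlap (log2 fold change -0.38, edgeR adjusted p = 0.10).

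None of the 3 delta subunits, which organise synapses more than they pass current, passed the test. grid1b held 12, 11.8 and 10.6 CPM in control MO and 12.4, 11 and 10.9 CPM in sf3b1 MO. The groups overlapped, with a log2 fold change of -0.01 (SE 0.11, edgeR adjusted p = 0.97). grid1a had a log2 fold change of 0.34 (edgeR adjusted p = 0.095), which was 0.48 with an edgeR adjusted p of 0.024 without sf3b1 MO replicate 2.

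Of 17 GABA-A subunits 5 rose (29.4%) and 4 fell (23.5%), near the 25.2% and 25.9% of all genes, and the median was 0.02. Of 6 alpha subunits, which bind GABA together with beta subunits, none rose and 3 fell: gabra4 (log2 fold change -1.16), gabra2a (-0.77) and gabra5 (-0.70). gabra4 was scarce, at 1.32, 1.81 and 1.73 CPM against 0.321, 1.01 and 0.811 CPM, and its adjusted p of 0.025 in edgeR rose to between 0.07 and 0.079 without control MO replicate 2, control MO replicate 3 or sf3b1 MO replicate 1.

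The rho subunits, which form GABA channels on their own and are known from retinal bipolar cells, rose in 2 of 4 genes. gabrr1 stood at 6.10, 4.96 and 5.93 CPM in control MO and 10.8, 13.1 and 14.4 CPM in sf3b1 MO, without overlap (log2 fold change 1.17, SE 0.15, edgeR adjusted p = 2.1e-05). gabrp, the pi subunit, known in mammals mostly outside the nervous system, stood at 25.6, 17.8 and 24.2 against 28.3, 30.9 and 28.6 CPM (log2 fold change 0.37, SE 0.12, edgeR adjusted p = 0.027). The count of 5 GABA-A rises was fragile: it was 2 without control MO replicate 2 or without sf3b1 MO replicate 3, and 3 without control MO replicate 3 or without sf3b1 MO replicate 2. The weaker calls among them were gabrp, gabrr2a (0.38) and gabrb1 (0.39).

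**Figure D2:**
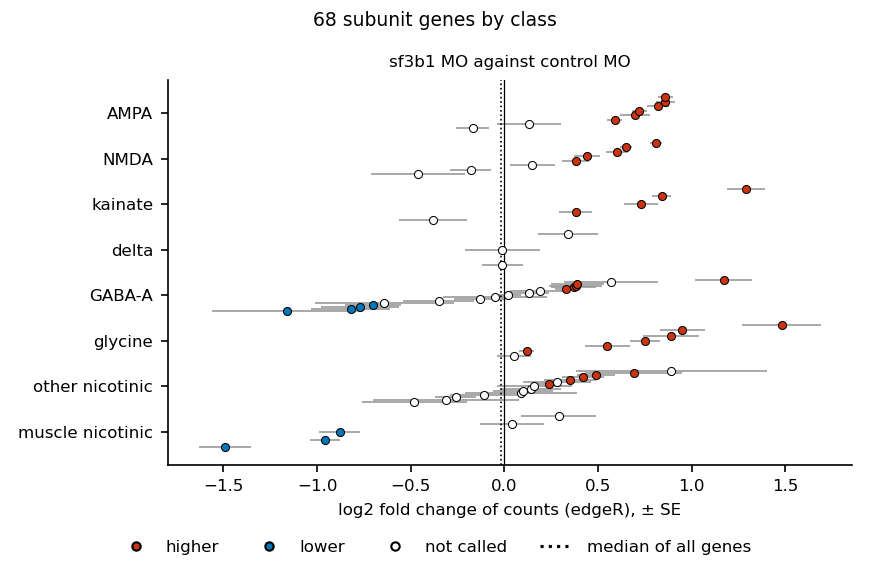
Log2 fold change of counts, sf3b1 MO against control MO, for each of the 68 subunit genes by class, with bars of 1 SE; filled points passed an edgeR adjusted p under 0.05 and the dotted line is the median of all genes. Red points fill the AMPA, NMDA, kainate and glycine rows up to 1.48, GABA-A genes lie on either side of 0, and 3 muscle subunits lie between -1.49 and -0.88.

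Glycine receptor subunits rose in 6 of 7 genes, with a median of 0.75. The largest rise of any subunit was that of the scarce beta copy glrba, from 1.77, 2.09 and 2.44 to 6.14, 6.65 and 4.75 CPM (log2 fold change 1.48, SE 0.21, edgeR adjusted p = 6.7e-05). The abundant beta copy glrbb, needed for glycine receptors to cluster at synapses and mutated in the zebrafish bandoneon line, overlapped between groups at 40.8, 49.0 and 46.7 against 44.9, 52.4 and 43.6 CPM. Its log2 fold change was 0.05 (SE 0.09, edgeR adjusted p = 0.68), and its level in control MO was 23.1 times that of glrba per length. The alpha subunits glra4a (0.95), glra4b (0.89), glra3 (0.75) and glra2 (0.55) rose. For glra1 the call depended on the kind of value: counts gave 109, 106 and 110 against 114, 124 and 116 CPM (log2 fold change 0.12, SE 0.04, edgeR adjusted p = 0.036), whereas FPKM gave -0.07 in limma (adjusted p = 0.33). It was not called either without any 1 control MO replicate or without sf3b1 MO replicate 2 (edgeR adjusted p from 0.055 to 0.14).

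Of 15 nicotinic subunits outside muscle 5 rose (33.3%, beside 25.2% of all genes) and none fell, with a median of 0.16. chrnb2, the main beta subunit of brain receptors in mammals, stood at 48.1, 52.3 and 47.1 CPM in control MO and 59.0, 57.6 and 57.5 CPM in sf3b1 MO (log2 fold change 0.24, SE 0.06, edgeR adjusted p = 0.004). The accessory subunit chrna5 stood at 16.9, 16.6 and 13.7 against 20.8, 22.9 and 19.6 CPM (log2 fold change 0.42, SE 0.11, edgeR adjusted p = 0.0051). Neither overlapped between groups. The other 3 were chrnb3a (0.49), chrna10a (0.35) and chrna11 (0.69). chrna10a was not called without any 1 of the 6 libraries (edgeR adjusted p from 0.054 to 0.14). The count of 5 was 3 without control MO replicate 1, control MO replicate 3, sf3b1 MO replicate 2 or sf3b1 MO replicate 3.

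The muscle receptor moved the other way. chrna1, which carries the main acetylcholine-binding face, stood at 38.5, 42.1 and 39.9 CPM in control MO and 22.0, 20.1 and 19.8 CPM in sf3b1 MO. All sf3b1 MO libraries were far below the controls (log2 fold change -0.96, SE 0.08, edgeR adjusted p = 2.4e-07). chrnb1 stood at 12.9, 12 and 13.4 against 4.08, 5.11 and 4.44 CPM (log2 fold change -1.49, SE 0.14, edgeR adjusted p = 1.3e-06), the largest fall of any subunit gene. chrnd stood at 18.3, 15.9 and 18.5 against 9.07, 9.12 and 10.4 CPM (log2 fold change -0.88, SE 0.11, edgeR adjusted p = 2.2e-05). The gamma and epsilon subunits, which replace one another as the mammalian receptor matures, passed in neither direction. chrne held 4.96, 5.23 and 5.74 against 6.09, 5.29 and 5.02 CPM (log2 fold change 0.04, edgeR adjusted p = 0.86), and chrng 2.74, 3.03 and 2.74 against 3.85, 3.44 and 3.13 CPM (log2 fold change 0.29, edgeR adjusted p = 0.25). Of the summed FPKM of the 5 muscle genes, chrne made 6.25 ± 0.347% in control MO and 11.4 ± 0.827% in sf3b1 MO (SD, n = 3). The share of chrng was 3.37 ± 0.218% in control MO and 7.33 ± 0.564% in sf3b1 MO, and with As2S2 it was 9.66 ± 2.37% against 4.0 ± 2.30% for chrne.

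Markers of the cells that carry these receptors moved too, in a comparison where 25.2% of all genes rose and 25.9% fell. All 14 skeletal muscle markers were detected, 13 fell, and their summed level went from between 12044 and 12535 FPKM to between 5253 and 5572 FPKM. Of 16 neuron markers 9 rose and 3 fell, and their sum went from between 2667 and 2679.6 to between 3146 and 3148 FPKM. Of 9 inner retina markers 5 rose and none fell, with sums of 214 to 229 and 243 to 262 FPKM, while 7 of 9 photoreceptor markers fell and 1 rose. Of 7 motor neuron markers in the table, out of 8 listed, 3 rose and 2 fell, with sums of 111 to 116 and 121 to 130.1 FPKM. Of 8 glial markers 2 rose and 4 fell, with sums of 1792 to 1839 and 1857 to 1902 FPKM. No marker of these lists was at 0. The part of these shifts in the results above was not tested.

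Glutamate receptor subunits took a larger share of the summed FPKM of all subunits outside muscle in sf3b1 MO, at 75.5, 74.0 and 75.0%, than in control MO, at 68.3, 67.7 and 68.4%. The share of GABA-A and glycine subunits was 18.5, 19.7 and 19.0% against 24.2, 24.4 and 24.1%. Neither share overlapped between the groups, and with As2S2 they stood at 67.0 ± 0.441% and 24.0 ± 0.734% (SD, n = 3). These shares carry no test. They cover the 60 members outside muscle that had FPKM in all 9 libraries. The rows outside the rule are left out. The largest of them in control MO were GABRD and gabrr3b, each at 8.42 FPKM on average, GABRR1 at 6.47 and GRIK1 at 6.41 FPKM. In sf3b1 MO these stood at 6.69, 12.3, 6.33 and 7.05 FPKM.

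Genes that work beside the receptors were taken from 5 further lists. Of 37, 12, 25, 12 and 26 genes listed, 23, 11, 19, 7 and 14 had counts and were tested, in the order below. Their shares stand beside 25.2% of all genes higher and 25.9% lower. Of 23 tested scaffold and auxiliary genes of glutamate receptors, 12 rose (52.2%) and 2 fell (8.7%). Among those that rose were syngap1b, a synaptic regulator of Ras (log2 fold change 0.59), and cacng2b, which helps AMPA receptors reach the membrane (0.49). nlgn1, a synaptic adhesion gene, fell by 1.05. Of 11 genes for GABA and glycine receptor scaffolds 6 rose (54.5%) and 1 fell (9.09%). gphna, a copy of the gephyrin gene that clusters these receptors, stood at 0.75. Of 19 genes for transmitter synthesis and transport 7 rose (36.8%) and 5 fell (26.3%). gad1b and gad2, which make GABA, rose by 0.38 and 0.33. slc1a3b, a glial glutamate transporter, fell by 1.02, while the transporter gene slc1a2b rose by 0.16. slc17a6a, which loads glutamate into vesicles, fell by 1.15 from 17.1 ± 0.621 CPM in control MO. Its more abundant duplicate slc17a6b rose by 0.16, from 196 ± 7.59 to 218 ± 3.43 CPM (SD, n = 3, edgeR adjusted p = 0.0029). Of the 7 tested genes listed for the neuromuscular synapse and acetylcholine breakdown 2 rose (28.6%) and 4 fell (57.1%). The listed rapsn, dok7a, dok7b, ric3b and utrn were not found by these symbols. The rises were those of tmem35 (0.23) and ric3a (0.59). lrp4, agrn, ache and colq, which anchors acetylcholinesterase at the muscle synapse (-1.56), fell, and musk was not called. Of 14 G protein coupled receptors of the same transmitters 5 rose (35.7%) and 5 fell (35.7%), with grm2b at 0.92 and the muscarinic receptor chrm3a at -1.31.

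The second comparison, sf3b1 MO + As2S2 against sf3b1 MO, could be made only on FPKM, with limma on log2(FPKM + 1). This scale understates changes of genes at low FPKM. Whether the As2S2 libraries were processed and normalised together with the others is not stated in the sources used here. Of 21109 genes or transcripts, 20723 had counts, 20146 had As2S2 FPKM and 19760 had FPKM in all 9 libraries. In this comparison and against control MO, a separate batch or processing cannot be told apart from the treatment, and was not tested. Most AMPA, NMDA, kainate, GABA-A, glycine and muscle subunit genes were lower with As2S2, as were 2 of 3 delta and 7 of 11 other nicotinic genes, while gabrb4 and grik3 were higher. Of the 68 subunit genes, 60 were tested, 3 (gabra4, gabrz and chrna7a) had no As2S2 value and 5 were too low. Of the 60, 51 were lower (85.0%) and 2 higher (3.33%), where 44.5% of all 18013 genes were lower and 17.3% higher. Of the 60, 49 reached 1 FPKM in all 3 groups, and glrba passed the filter through sf3b1 MO alone. Another 9 (gria1b, gabra6a, gabrb1, grin2ab, chrnb1, chrne, chrng, chrna6 and chrnb3b) reached it in control MO and sf3b1 MO only. gabrr2b reached it in sf3b1 MO and with As2S2 only. The filter thus let glrba and these 9 in through groups without As2S2, so their place among the falls is partly set by it. With no filter, 56 of 65 were lower and 2 higher, against 43% and 16.5% of 19760 genes.

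The median gene fell by 0.20 on the log2 scale in this comparison, and the relative log2 fold changes are set against it. Calls and the adjusted p printed beside relative values belong to the unshifted log2 fold changes, here and against control MO. After each library was centred on its median, 44 of the 60 were lower and 3 higher, against 27.4% and 30.2% of all genes. The 60 had a median of -0.62 relative to the median gene. Marker levels differed beside these values: neuron markers summed to between 2213 and 2243 FPKM with As2S2 (14 of 16 lower, 1 higher), skeletal muscle markers to between 3230.5 and 3336 FPKM (11 of 14 lower, none higher), and photoreceptor markers to between 239.6 and 247 FPKM against 2235 to 2312 FPKM in sf3b1 MO (9 of 9 lower). Inner retina markers summed to between 262 and 267 FPKM, with 3 of 9 higher and 5 lower. These marker counts are of unshifted calls, where 44.5% of all genes were lower and 17.3% higher. After centring 11 of 16 neuron, 8 of 14 muscle, 8 of 9 photoreceptor and 5 of 9 inner retina markers were lower. Those higher were 2, 0, 0 and 4 in the same order. No marker was at 0, and the part of the markers in the result was not tested.

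Among glutamate receptors all 8 AMPA, all 7 tested NMDA and 4 of 5 kainate subunits were lower, where 44.5% of all genes were lower. After centring 7, 7 and 4 were lower, against 27.4% of all genes. Of these, gria1b and grin2ab reached 1 FPKM in control MO and sf3b1 MO only. gria3a went from 129.9, 113 and 126 FPKM in sf3b1 MO to 28.6, 29.0 and 28.8 FPKM with As2S2, a mean 4.27 times lower and far outside the spread (relative log2 fold change -1.85, SE 0.05, limma adjusted p = 2.7e-09). grin1a went from 116, 114 and 111 to 44.2, 43.3 and 45.5 FPKM, and grin1b from 123, 119 and 126 to 36.9, 37.6 and 37.4 FPKM (relative log2 fold changes -1.13 and -1.49). grik3 was the exception: it stood at 1.08, 0.933 and 1.1 FPKM in sf3b1 MO and 2.16, 1.82 and 1.77 FPKM with As2S2 (relative log2 fold change 0.72, SE 0.10, limma adjusted p = 0.0016). Of the delta subunits 2 of 3 were lower, and none after centring. Of the summed FPKM of the grin2 members, grin2bb made 38.1 ± 3.64% in sf3b1 MO and 46.9 ± 0.0417% with As2S2 (SD, n = 3). This sum leaves out GRIN2B and grin2db, which fell outside the rule and would lower both shares. On average they stood at 3.21 and 0.312 FPKM in sf3b1 MO and at 2.32 and 0.601 FPKM with As2S2. The averages of grin2bb were 9.3 and 4.53 FPKM.

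Of the 14 tested GABA-A subunits 11 were lower (78.6%) and 1 was higher (7.14%), beside 44.5% and 17.3% of all genes. After centring 10 were lower and 2 higher. gabrb4, a beta subunit described in birds and fish, stood at 2.06, 1.84 and 1.75 FPKM in sf3b1 MO and 8.61, 7.92 and 7.35 FPKM with As2S2 (relative log2 fold change 1.84, SE 0.09, limma adjusted p = 5.1e-07). The As2S2 libraries lay above all sf3b1 MO libraries. Of the summed FPKM of the 4 beta genes, gabrb4 made 7.66, 6.84 and 6.13% in sf3b1 MO and 53.0, 50.9 and 50.4% with As2S2, after 8.78, 10.1 and 9.43% in control MO.

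gabra6a, whose mammalian counterpart marks cerebellar granule cells, was lower too, and reached 1 FPKM in control MO and sf3b1 MO only. It stood at 3.46, 4.79 and 3.32 FPKM in sf3b1 MO and 0.191, 0.0996 and 0.210 FPKM with As2S2, a mean 23.1 times lower (relative log2 fold change -1.84, SE 0.12, limma adjusted p = 8.8e-07). Among rho genes gabrr1 went from 6.31, 7.65 and 8.36 to 1.40, 1.27 and 1.05 FPKM (relative log2 fold change -1.71, SE 0.12, limma adjusted p = 9.2e-07). gabrr2a was lower too (-1.67), whereas its duplicate gabrr2b, at 1.49 and 1.46 FPKM on average, was not called. Its relative log2 fold change was 0.19, and the unshifted one -0.01 (limma adjusted p = 0.94).

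**Figure D3:**
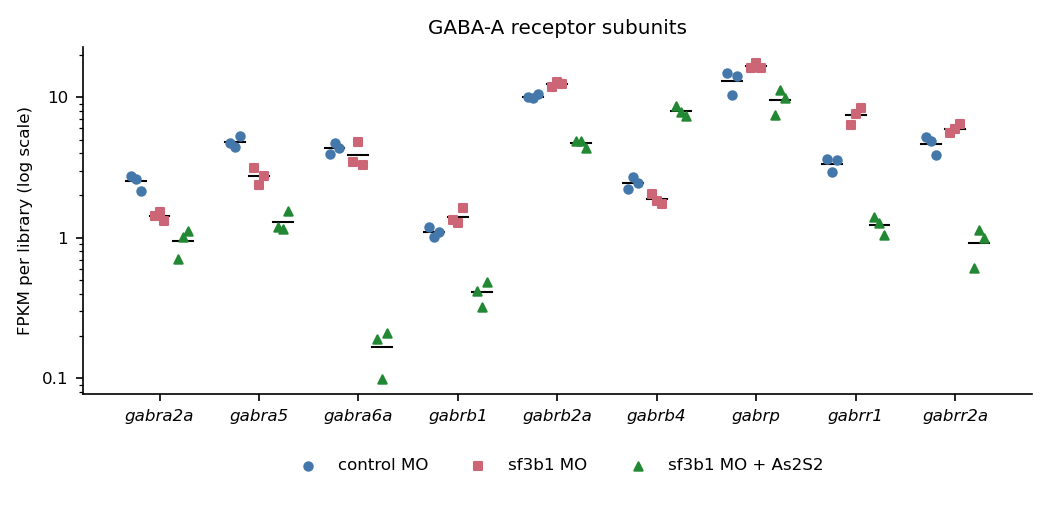
FPKM of 9 GABA-A subunit genes in each library on a log axis; points are libraries and short bars are group means. gabrb4 is the gene that stands higher with As2S2, at 7.35 to 8.61 FPKM, while gabra6a lies at or under 0.210 FPKM there and gabrr1 between 1.05 and 1.40 FPKM.

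All 7 glycine subunits were lower, where 44.5% of all genes were, with a median of -0.85 relative to the median gene. After centring 6 were lower. One of the 7, glrba, passed the filter through sf3b1 MO alone, so its fall is partly set by the filter. glra1 went from 13.0, 13.6 and 13.3 to 5.50, 5.98 and 6.08 FPKM (relative log2 fold change -0.86, SE 0.05, limma adjusted p = 3.2e-07), and glrbb from 17.8, 20.7 and 17.2 to 10.1, 12 and 9.83 FPKM (-0.55, SE 0.10, limma adjusted p = 0.00015). Neither overlapped between groups. glra4a changed least, at -0.16, and was not called after centring, nor without sf3b1 MO replicate 1, sf3b1 MO replicate 2 or As2S2 replicate 2 (limma adjusted p from 0.052 to 0.068). Of 15 nicotinic subunits outside muscle 11 were tested, and 7 were lower (63.6%, beside 44.5% of all genes) and none higher. After centring 6 were lower, and none higher. The 7 were led on this scale by chrna10a, known in mammals from hair cells of the inner ear (-1.24), and chrnb3b (-1.19). By mean FPKM these 2 were 4.58 and 5.58 times lower, and chrnb3b reached 1 FPKM in control MO and sf3b1 MO only. chrna5 (-0.19) was lower, with no call after centring, and chrna2a (0.23), chrna11 (0.21) and chrnb4 (0.00) passed in neither direction.

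All 5 muscle subunits were lower with As2S2 than in sf3b1 MO, and 4 after centring. Of all genes 44.5% were lower, and 27.4% after centring. Of the 5, chrnb1, chrne and chrng reached 1 FPKM in control MO and sf3b1 MO only. chrna1 went from 9.15, 8.29 and 8.16 to 4.78, 3.89 and 5.16 FPKM (relative log2 fold change -0.57, SE 0.09, limma adjusted p = 7e-05). chrnd went from 4.08, 4.09 and 4.65 to 1.89, 1.63 and 2.16 FPKM, and chrnb1 from 0.833, 1.05 and 0.903 to 0.256, 0.399 and 0.231 FPKM (-0.67 and -0.37). chrne, not called in sf3b1 MO against control MO, went from 2.16, 1.87 and 1.76 to 0.408, 0.0925 and 0.489 FPKM (-0.95, SE 0.12, limma adjusted p = 4e-05). chrng changed least, from 1.38, 1.23 and 1.11 to 0.898, 0.754 and 0.599 FPKM (-0.16), and had no call after centring. The As2S2 libraries lay below all sf3b1 MO libraries in each of the 5 genes, as in 46.8% of all genes tested.

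**Figure D4:**
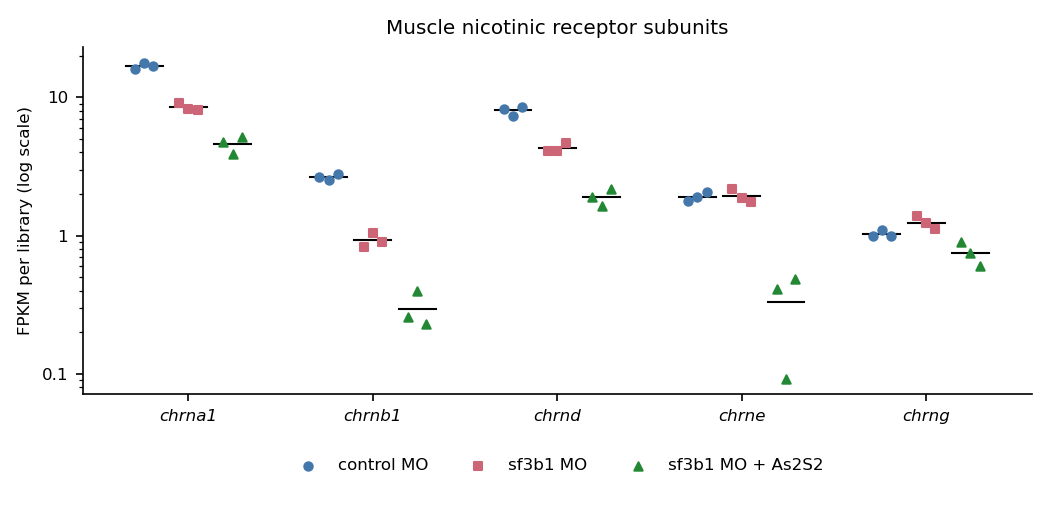
FPKM of the 5 muscle nicotinic subunit genes in each library on a log axis; points are libraries and short bars are group means. chrna1, chrnb1 and chrnd step down from control MO to sf3b1 MO to As2S2, while chrne averages 1.92 FPKM in control MO and 1.93 in sf3b1 MO and is lower with As2S2; chrng was not called between As2S2 and control MO.

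The third comparison, sf3b1 MO + As2S2 against control MO, shares its libraries with the other 2, and its values are set beside theirs with no test between them. Of the 60 tested subunit genes 45 were lower (75.0%) and 4 higher (6.67%), where 48.5% of all genes were lower and 19.5% higher. The median gene fell by 0.25 here. With no filter 49 of 65 were lower and 4 higher, against 47.2% and 18.4% of all genes. After centring 32 of the 60 were lower and 10 higher, against 28% and 34.8% of all genes. Among the genes not called here were gria2a, glrba, grik1a, grik2 and chrna5. For grik2 the As2S2 libraries lay between 9.83 and 10.2 FPKM and the controls between 9.43 and 10.1 FPKM, which overlapped. The same was true of grik1a, at 2.59, 2.54 and 2.26 against 2.53, 2.25 and 2.42 FPKM. After centring both were called higher, as were gria2a (0.22 on the centred scale, limma adjusted p = 0.016) and chrna5 (0.32, limma adjusted p = 0.031), while glrba was not.

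The 4 genes higher with As2S2 than in control MO were gabrb4, glra4a, chrna11 and grik3. Their unshifted log2 fold changes, to which the adjusted p below belong, were 1.37, 0.43, 0.39 and 0.3. gabrb4 stood at 2.22, 2.71 and 2.46 FPKM in control MO, below all As2S2 libraries (relative log2 fold change 1.62, SE 0.09, limma adjusted p = 1.1e-06). glra4a stood at 4.37, 4.45 and 3.50 against 6.1, 5.0 and 6.53 FPKM (0.68, SE 0.11, limma adjusted p = 0.008). chrna11 stood at 1.04, 1.24 and 0.625 against 1.45, 1.66 and 1.56 FPKM (0.64, SE 0.13, limma adjusted p = 0.021), with an adjusted p of 0.072 without control MO replicate 3 and 0.06 without As2S2 replicate 2. grik3 stood at 1.25, 1.23 and 1.66 FPKM in control MO (0.55, SE 0.10, limma adjusted p = 0.025), with an adjusted p of 0.085 to 0.087 without control MO replicate 1, control MO replicate 2 or As2S2 replicate 1. Among the deepest falls were those of gabra6a (-1.94), chrna1 (-1.44) and chrnd (-1.40). chrna1 was on average 3.68 times and chrnb1 9.03 times lower in FPKM than in control MO. All 14 skeletal muscle markers were lower in this comparison, where 48.5% of all genes were lower. After centring 13 of them were lower, against 28% of all genes.

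**Figure D5:**
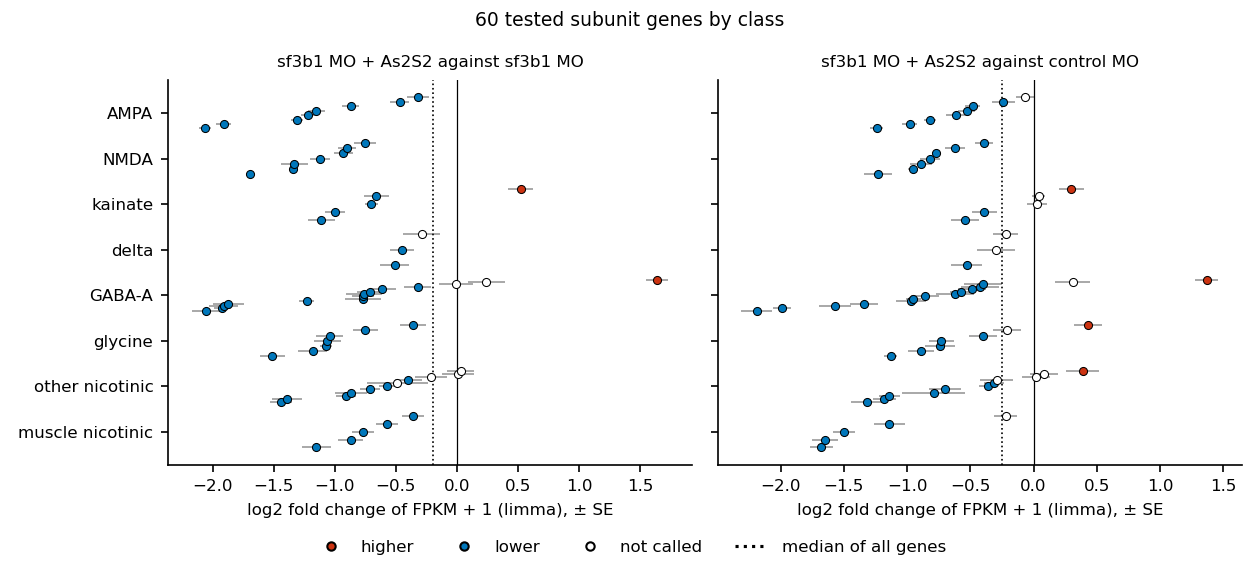
Log2 fold change of FPKM + 1 with As2S2, against sf3b1 MO (left) and control MO (right), for the 60 tested subunit genes by class, with bars of 1 SE; filled points passed a limma adjusted p under 0.05 and the dotted line is the median of all genes (-0.20 and -0.25). Most points lie left of the dotted line, and gabrb4 lies farthest right in both panels.

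Over the 9 libraries the log2(FPKM + 1) of chrnd (Pearson r = 0.984), gabra5 (0.984), chrnb1 (0.969) and gabra2a (0.945) was most like that of chrna1. These are descriptions over libraries that fall into 3 groups, and they carry no p. gabra5 stood at 8.77, 8.11 and 9.27 CPM in control MO and at 5.54, 4.89 and 5.67 CPM in sf3b1 MO (log2 fold change -0.70, SE 0.15, edgeR adjusted p = 0.0014). Between As2S2 and sf3b1 MO the call of gabra2a, lower by 0.12 relative to the median gene, was lost after centring and without sf3b1 MO replicate 1, sf3b1 MO replicate 2 or As2S2 replicate 1 (limma adjusted p from 0.063 to 0.095).

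With As2S2 most of the partner genes were lower than in sf3b1 MO. In that comparison 44.5% of all genes were lower and 17.3% higher, and after centring 27.4% and 30.2%. Of 21 tested glutamate receptor scaffold genes 19 were lower (90.5%) and none higher, led by syngap1b (-1.33 relative to the median gene). Of 11 GABA and glycine receptor scaffold genes 9 were lower (81.8%), with shisa7b at -0.64. Of 19 transmitter genes 14 were lower (73.7%) and 3 higher (15.8%). slc6a1b, which takes up GABA, stood at -0.92. Glutamate transporter genes went both ways. The glial slc1a3a (1.07) and slc1a3b (0.62) rose, while slc1a2a fell from 6.08 ± 0.791 to 0.111 ± 0.0839 FPKM (-2.47; SD, n = 3). The abundant slc1a2b was called lower (unshifted log2 fold change -0.1), but stood at 0.1 relative to the median gene and was called higher after centring. Of 6 tested genes listed for the neuromuscular synapse and acetylcholine breakdown, 3 were higher and 3 lower. Those higher were lrp4 (0.72), agrn, which triggers receptor clustering (0.61), and tmem35 (0.36). Those lower were ric3a (-0.83), ache, which breaks acetylcholine down (-0.64), and colq (-0.07). Of 11 tested G protein coupled receptors 9 were lower (81.8%) and 1, the GABA-B gene gabbr1b, higher (0.55). After centring 19 of 21, 8 of 11, 12 of 19, 2 of 6 and 9 of 11 genes of these lists were lower. The genes higher after centring were 0, 0, 4, 3 and 1 in the same order.

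Symbols ending in a and b gave 16 pairs of duplicates. Both copies were tested in all 16 for sf3b1 MO against control MO, and 12 had the same call. Of the 12, the gria2, gria3, gria4, grin1 and glra4 pairs had both copies higher. In the rest (gria1, gabra6, grin2c, grid1, chrna2, chrna7 and chrnb5) neither copy was called. Of the 68 subunit genes 31 were higher in this comparison, 7 lower and 30 not called. With As2S2 both copies were tested in 12 pairs, of which 10 had the same call against sf3b1 MO and 6 against control MO. Of the 60 tested subunit genes 85.0% were lower in the former comparison and 75.0% in the latter. Whether copies were called alike more often than these shares alone would give was not tested. Against control MO glra4a was higher and glra4b lower. After centring glra4a was still called higher, but glra4b was not called (-0.11, limma adjusted p = 0.42). By position in RefSeq's GRCz12tu assembly, in which 69 members were found, 20 members lay in 9 clusters with at most 1 gene between neighbours. gria2a lay next to glrba and gria2b next to glrbb: the first 2 and gria2b rose in sf3b1 MO, and glrbb did not. gabra6a and gabrb2a were neighbours too, and were lower with As2S2 by 1.84 and 1.02 relative to the median gene.

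Of the 13 rows outside the rule, gabrr3b rose from 8.0, 9.15 and 8.12 FPKM in control MO to 12.4, 12.7 and 11.7 FPKM in sf3b1 MO (log2 fold change of counts 0.58, edgeR adjusted p = 0.00035). It was lower with As2S2, at 2.84, 3.67 and 3.13 FPKM. chrna8 (0.89) and grin3a (0.52) rose and GABRG1 (-0.69) fell in sf3b1 MO. GABRD, whose product sits outside synapses in mammals, stood at 8.42, 6.69 and 4.70 FPKM in the 3 groups and was called lower with As2S2 against control MO alone. CHRNA3, GABRR1, GRIK1, GRIN2B, GRIN3B, grin3ba and grin2db were not called in sf3b1 MO against control MO, and chrna9b entered no comparison.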

How the data were processed

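Per the labels' protocols, polyA RNA was sequenced in 9 libraries. Per the submitters' processing notes, fastp 0.22.0, DESeq2 and GRCz11 (danRer11) were used; which aligner and counter were used was not given in the sources used here. The authors deposited 1 merged table with raw counts of 6 libraries (its wt and ko columns were read as control MO and sf3b1 MO), FPKM of all 9, and mean log2 values, log2 fold changes and p-values of their own, which were not used. FPKM were normalised by the authors, and whether all 9 libraries were normalised together is not stated. No count of the As2S2 libraries was used, so their depth is unknown.

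Counts were tested with edgeR 4.0.16 (quasi-likelihood, TMM; R 4.3.3) and log2(FPKM + 1) with limma 3.58.1 over genes of at least 1 FPKM in 3 libraries, each over all genes, with Benjamini-Hochberg adjusted p under 0.05 as the threshold. Both were tested on simulated data. Alternatives were DESeq2 1.42.0, RLE scaling, other filters and pseudocounts, centring, a replicate block and leaving out each library. Per-library values were given for the muscle subunits. They were also given for most, not all, of the 2 most abundant genes of each other class and the 4 largest rises and falls in each comparison. Some others were added after their values were seen. The members and lists were chosen with earlier results of these data known. A few members enter the counts, sums and medians but are not reported here by name.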

Additional observations from a re-analysis of the deposited data

How the results depend on the processing

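Against control MO, sf3b1 MO gave 31 subunit genes higher and 7 lower. RLE scaling, no filter and a 1 CPM filter changed no member's call, and DESeq2 lost chrna10a (adjusted p = 0.072). With limma on FPKM in place of counts, 54 members were unchanged. The rises of gabrb1, gabrp, gabrr2a and grik4 were then not called, and gabrb4 (-0.27) and chrna2b (-0.22) were called lower. Leaving out 1 library gave 26 to 30 higher and 6 to 7 lower. With As2S2, a pseudocount of 0.1 and no filter changed no call of the 61 members tested. Requiring 5 FPKM left 31 subunit genes, of which 1 was higher and 30 lower against sf3b1 MO, and 2 higher and 25 lower against control MO; fewer genes were tested. Leaving out 1 library gave 2 to 3 higher and 48 to 52 lower against sf3b1 MO, and 3 to 4 higher and 42 to 45 lower against control MO. Centring gave 10 higher against control MO. Values that changed sign were those of glra1 in sf3b1 MO against control MO with limma on FPKM (-0.07), and of gria1b (0.05) and gria2a (0.22) with As2S2 against control MO after centring; the cause was not tested.

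The replicate numbers did not pair the libraries: deviations of same-numbered libraries correlated between -0.072 and 0.042. With the replicate block, 28 subunit genes were higher and 7 lower in sf3b1 MO against control MO. The counts with As2S2 were then 2 and 52 against sf3b1 MO, and 4 and 43 against control MO. No count is known for the As2S2 libraries, which limits what can be said of genes near 0 FPKM there.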
